A study of Homo sapiens with 8 samples.

Results

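The Wnt ligands, receptors, antagonists and their closest regulators were examined in SW1990, an established cell line derived from a pancreatic ductal adenocarcinoma. They were taken as every protein-coding gene named as a WNT ligand, a frizzled receptor (FZD), LRP5 or LRP6, ROR1 or ROR2, SFRP1 to SFRP5, DKK1 to DKK4, LGR4 to LGR6, an R-spondin (RSPO1 to RSPO4), RNF43, ZNRF3, AXIN1, AXIN2, NKD1, NKD2, or a TCF or LEF factor. There were 58 such genes among the 60483 in the deposited table. By role they were 19 ligands, 14 receptors, 8 secreted antagonists, 9 genes of the R-spondin axis, 4 feedback regulators and 4 TCF/LEF factors.

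RNA was sequenced from 2 groups of the same cell line, a control and a CRISPR knockdown of PAF1, a subunit of an RNA polymerase II elongation complex. The titles put all samples in the side population, the cells that pump out a DNA-binding dye. Each group had 2 libraries of 2 lanes each, and lanes, which the labels call technical replicates, were summed. Within a group, 1 library name carried the prefix SP and the other lacked it, so the libraries are called SP-prefixed and unprefixed. Both SP-prefixed names also held P3, so the prefix is not the only part in which the names differ. The unprefixed control was the only library without CRISPR in its name, and whether it was a matched control is not given. The labels do not settle whether the unprefixed libraries hold side population cells. The guide, the number of clones and any agent given to the cells are not given in the sources used here. No label names separate cultures, and p-values therefore measure only how far these libraries lie apart, which may be technical.

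Secreted Wnt proteins bind frizzled receptors, together with the co-receptors LRP5 and LRP6, and thereby protect beta-catenin from destruction. Beta-catenin then enters the nucleus and activates genes through TCF and LEF factors, while other Wnts act through frizzled and ROR receptors on cell polarity and movement without it. SFRP proteins bind Wnts, DKK1 binds LRP5 and LRP6, and R-spondins, through LGR receptors, hold back the ligases RNF43 and ZNRF3 that remove frizzled from the cell surface. In pancreatic cancer, RNF43 is recurrently mutated, and cells with such mutations are known to depend on Wnt ligands.

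Total counts were 17234973 to 22348416 per library. The chi-square over its degrees of freedom was 1.01 to 1.03 between lanes of the same library, near sampling noise, against 10.1 between the libraries labelled PAF1 knockdown and 41.3 between the controls. The SP-prefixed control stood apart from every other library (37.8 to 41.3), while the unprefixed control lay closer to the unprefixed library labelled PAF1 knockdown (11.96) than to the other control. PAF1 itself was at 55.2 and 43.9 CPM (counts scaled to a common library size) in the unprefixed and SP-prefixed controls and at 41.7 and 44.4 in the libraries labelled PAF1 knockdown, again unprefixed first. Its fold change of -0.20 ± 0.16 (log2, SE, n = 2 per group) did not pass edgeR's quasi-likelihood test (Benjamini-Hochberg adjusted p = 0.659), so the groups are named by their labels. All 7 ductal epithelial markers, such as KRT19 and EPCAM, had counts in each library, with a summed level of 5530 to 6923 CPM. The summed level of 7 fibroblast markers was 36.4 to 45.6 CPM. COL1A1 was at 29.8 to 37.9 CPM, LUM at 2.32 to 3.74 and PDGFRB at 2.37 to 3.94, PDGFRA and COL1A2 had at most 1 count in a library, and COL3A1 and DCN were at 0. The summed level of 6 immune markers was 0.316 to 2.78 CPM, of 5 endothelial markers 23.8 to 29.9, of 5 acinar markers 0.105 to 1.5 and of 4 endocrine markers 0.105 to 0.353. Most of the endothelial sum was CDH5, at 20.7 to 27.4 CPM. PECAM1 was at 1.475 to 4.055 CPM and VWF at 0.617 to 1.445, and KDR and TEK had at most 1 count in a library.

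Of the 58 Wnt genes, 33 passed the expression filter (a minimum count of 10) and were tested. A further 15 had some counts, at most 18 in any library, and 10 had none. The 10 without a count were the ligands WNT1, WNT2, WNT8A and WNT9B, the R-spondins RSPO1 and RSPO4, and the antagonists DKK2, DKK4, SFRP1 and SFRP4. A count of 0 allows a level of up to 0.132 to 0.174 CPM, depending on the library (3 counts, counting error only). The 15 low genes were the ligands WNT2B, WNT5A, WNT5B, WNT8B and WNT10B, the receptors FZD9, FZD10 and ROR2, the antagonists SFRP2 and SFRP5, LGR5, RNF43, RSPO2 and RSPO3, and the transcription factor LEF1. Among these, RNF43, the ligase that removes frizzled, had 14 and 5 counts in the controls and 3 and 8 in the libraries labelled PAF1 knockdown. LEF1, a nuclear partner of beta-catenin, had 18 and 5 against 8 and 4, and LGR5, a stem cell marker of the gut, had 2, 1, 2 and 0 counts. Of the genes tested, 2 passed the filter through the controls alone, WNT3A and WNT6, and 0 through the libraries labelled PAF1 knockdown alone.

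The repertoire rested on few genes of each role when levels were set per kilobase of exon (RPKM). DKK1 made up 98.2% of the summed antagonist level, and its mean of 139 RPKM ranked 214 of the 16417 genes tested. LRP5, a co-receptor, made up 45.6% of the receptor level, and the frizzled receptor FZD6, known in mice for hair patterning, 21.6%. Among the ligands, WNT7B, which can act through beta-catenin, made up 40.5%, WNT10A 39.2% and WNT9A 9.84%. LGR6 and LGR4, both receptors for R-spondins, held 55.0% and 44.0% of the R-spondin axis. The scaffold AXIN1 held 61.6% of the feedback regulators, and TCF7L2 49.8% of the TCF/LEF factors.

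**Figure D1:**
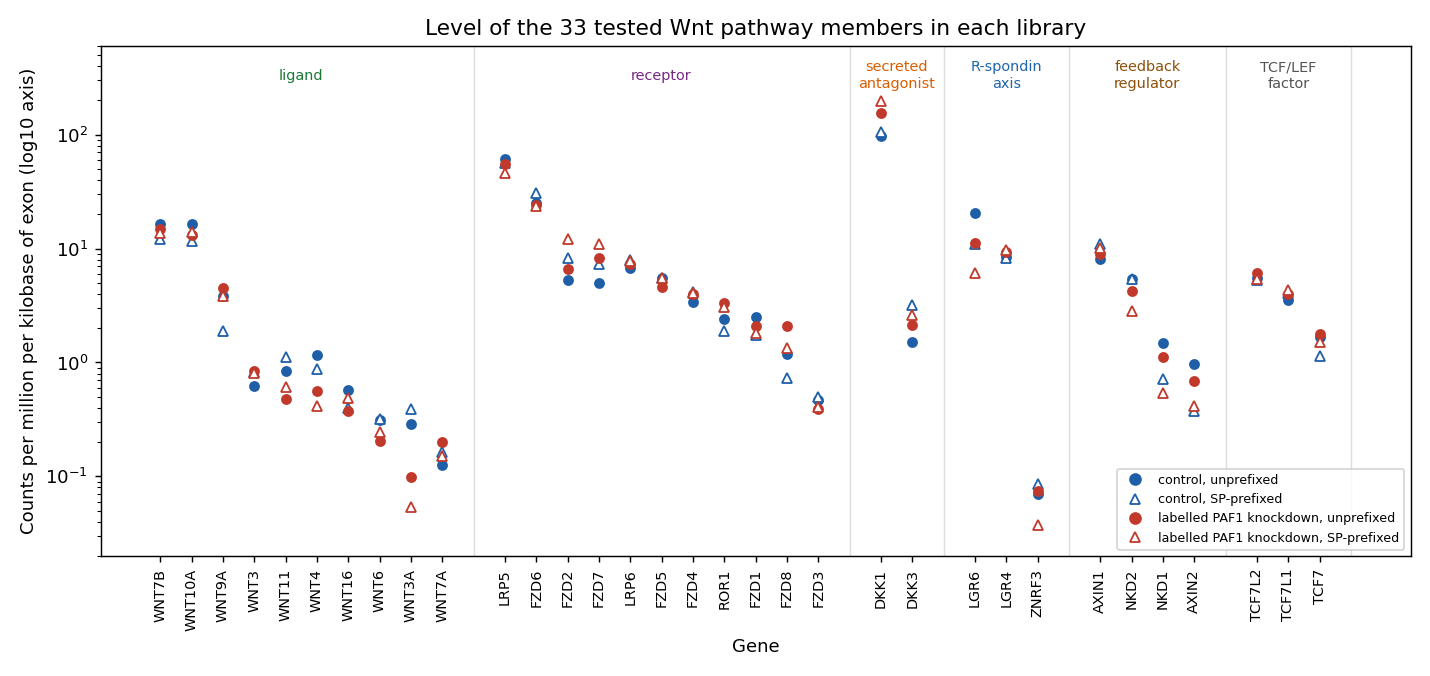
Level of each tested Wnt gene in the 4 libraries, as RPKM on a log axis, grouped by role; each point is 1 library. DKK1 stands far above the other antagonists, LRP5 leads the receptors, and LGR6 spans a wider range than LGR4.

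No Wnt gene passed the test of knockdown against control with no further term, nor did any of the 16417 genes (0.0% called, 0 genes, edgeR at an adjusted p of 0.05). At an unadjusted p under 0.05, 9 of the 33 tested Wnt genes stood out (27.3%), against 1841 of all genes tested (11.2%). They were 4 higher and 5 lower, with WNT3A among the latter, where 4.05% of all genes were higher and 7.16% lower. WNT3A passed the filter only through the controls. The Wnt genes were chosen with earlier results of these data known, so these shares are descriptions and were not tested as a set. DESeq2 called 262 genes (1.6%, with 0.457% higher and 1.14% lower), among them DKK1 as the 1 Wnt gene. When the name prefix was added as a term, edgeR called 320 genes (1.95%) and 2 Wnt genes (6.06%): DKK1 rose, where 0.542% of all genes rose, and LGR6 fell, where 1.41% fell. The unadjusted p in that fit was under 0.05 for 11 Wnt genes (33.3%), against 15.5% of all genes. These were 6 higher and 5 lower, again with WNT3A among the latter, beside 5.57% higher and 9.89% lower over all genes. DESeq2 with the prefix term called the same 2 Wnt genes among 1.3% of all genes (0.384% higher, 0.92% lower). It gave no adjusted p for WNT3A, WNT6, WNT7A and ZNRF3 with or without the term, so it could not call them. Its shares are over all 16417 genes. The median log2 fold change of the 33 genes was 0.002, beside -0.011 over all genes tested, and 0.015 beside -0.008 with the prefix term. In 14 of the 33 genes (42.4%) the groups did not overlap, with 5 higher and 9 lower in the libraries labelled PAF1 knockdown. The share over all genes was 44.7% (22.1% higher and 22.6% lower), so the count of 14 was near the background. The 9 lower include WNT3A and WNT6, which passed the filter only through the controls.

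DKK1, a secreted antagonist that binds LRP5 and LRP6, lies on chromosome 10 (GRCh38, chr10:52314296-52318042, plus strand). It was at 213 CPM (95% Poisson interval 207.1 to 219.1) in the unprefixed and 232.6 (225.9 to 239.3) in the SP-prefixed control. It was at 342 CPM (333.3 to 350.8) in the unprefixed library labelled PAF1 knockdown and 437.4 (428 to 446.9) in its SP-prefixed counterpart. Both libraries labelled PAF1 knockdown were above both controls, by a log2 ratio of 0.68 in the unprefixed pair and 0.91 in the pair with the prefix. On the log2 scale the difference was 0.81 ± 0.16 without the prefix term (edgeR, Benjamini-Hochberg adjusted p = 0.189) and 0.80 ± 0.13 with it (adjusted p = 0.021). The fit with the term left 1 residual degree of freedom, so its SE is not read as the spread of the DKK1 libraries alone. DESeq2 gave an adjusted p of 0.00294. Without the unprefixed control edgeR's adjusted p was 0.0303 (7.77% of all genes called), without the SP-prefixed control 0.046 (1.23% called), and without the unprefixed or SP-prefixed library labelled PAF1 knockdown 0.285 and 0.999. In a bulk sample, more cells with a transcript and more transcript per cell cannot be told apart.

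LGR6, a receptor for R-spondins, lies on chromosome 1 (chr1:202193901-202319781, plus strand). It was at 94.9 CPM (95% Poisson interval 91.0 to 99.0) in the unprefixed and 50.4 (47.4 to 53.7) in the SP-prefixed control. It was at 51.8 CPM (48.4 to 55.3) in the unprefixed library labelled PAF1 knockdown and 28.2 (25.9 to 30.7) in its SP-prefixed counterpart. The groups overlapped, since the SP-prefixed control lay at the level of the unprefixed library labelled PAF1 knockdown. Within each pair alike in prefix, however, the library labelled PAF1 knockdown was lower. The log2 ratio was -0.87 without the SP prefix and -0.84 with it. With the prefix term LGR6 fell by 0.86 ± 0.14 on the log2 scale (edgeR, Benjamini-Hochberg adjusted p = 0.021), and without it the value was -0.86 ± 0.36 (adjusted p = 0.438). The fit with the term left 1 residual degree of freedom, and its SE was alike for LGR4 (0.143), AXIN1 (0.145) and WNT7B (0.149). That SE is therefore not read as the spread of the LGR6 libraries alone. DESeq2 gave an adjusted p of 0.761 without and 0.00516 with the prefix term. Without that term the log2 difference moved to -0.32 when the unprefixed control was left out and to -1.36 when the unprefixed library labelled PAF1 knockdown was left out, and edgeR called it in neither case (adjusted p = 0.516 and 0.352). The summed level of the 7 epithelial markers also differed between libraries, at 6923, 5676, 5887 and 5530 CPM in the same library order. Of these 7, MUC1, a membrane mucin, was at 229, 142.7, 114.6 and 71.5 CPM, also lower in the library labelled PAF1 knockdown of each pair, and with the prefix term in edgeR it fell by 1.00 ± 0.13 on the log2 scale (adjusted p = 0.0105). The other 6 did not pass that test and did not all go the same way. KRT7 was higher in the library labelled PAF1 knockdown of each pair, and KRT19, EPCAM and CDH1 were lower in each. KRT8 and KRT18 differed in direction between the pairs. The part of these markers in the LGR6 values was not tested. LGR4, the other abundant R-spondin receptor, was at 53.6 and 51.9 CPM in the controls and 59.0 and 61.0 in the other group, a log2 difference of 0.19 ± 0.14 in edgeR with the prefix term (adjusted p = 0.59).

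The promoters of the genes called with the prefix term are shown because they are the Wnt genes on which the group comparison turns. Each run covers 250 bases before to 50 after the RefSeq start (GRCh38.p14, plus strand), at chr10:52314031-52314330 for DKK1 and chr1:202193549-202193848 for LGR6. Capitals mark a match to CTTTGAA or CTTTGAT, forms of the TCF/LEF binding motif, searched on both strands.
DKK1: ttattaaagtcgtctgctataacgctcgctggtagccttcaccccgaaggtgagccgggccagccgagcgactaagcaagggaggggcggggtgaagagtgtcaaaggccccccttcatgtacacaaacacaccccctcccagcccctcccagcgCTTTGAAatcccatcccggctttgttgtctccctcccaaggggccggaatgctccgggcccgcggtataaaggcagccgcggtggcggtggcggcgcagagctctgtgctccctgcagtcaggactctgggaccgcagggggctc
LGR6: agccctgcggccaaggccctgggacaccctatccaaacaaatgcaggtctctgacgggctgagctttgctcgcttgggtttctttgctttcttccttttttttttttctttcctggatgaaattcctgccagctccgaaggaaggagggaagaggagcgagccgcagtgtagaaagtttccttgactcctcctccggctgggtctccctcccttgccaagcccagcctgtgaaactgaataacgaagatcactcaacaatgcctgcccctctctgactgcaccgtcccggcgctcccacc
DKK1 held 1 match and LGR6 0. The RefSeq table used here held a promoter for 40 of the 58 genes, with AXIN2 and NKD1 not among them, and 1 of these 40 (2.5%) held a match, against 2409 of 35116 promoters of the same length (6.86%). A match here is a description of letters and not a bound site. The GC content was 63.7% for DKK1 and 55.3% for LGR6, beside a median of 58.7% over all promoters.

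**Figure D2:**
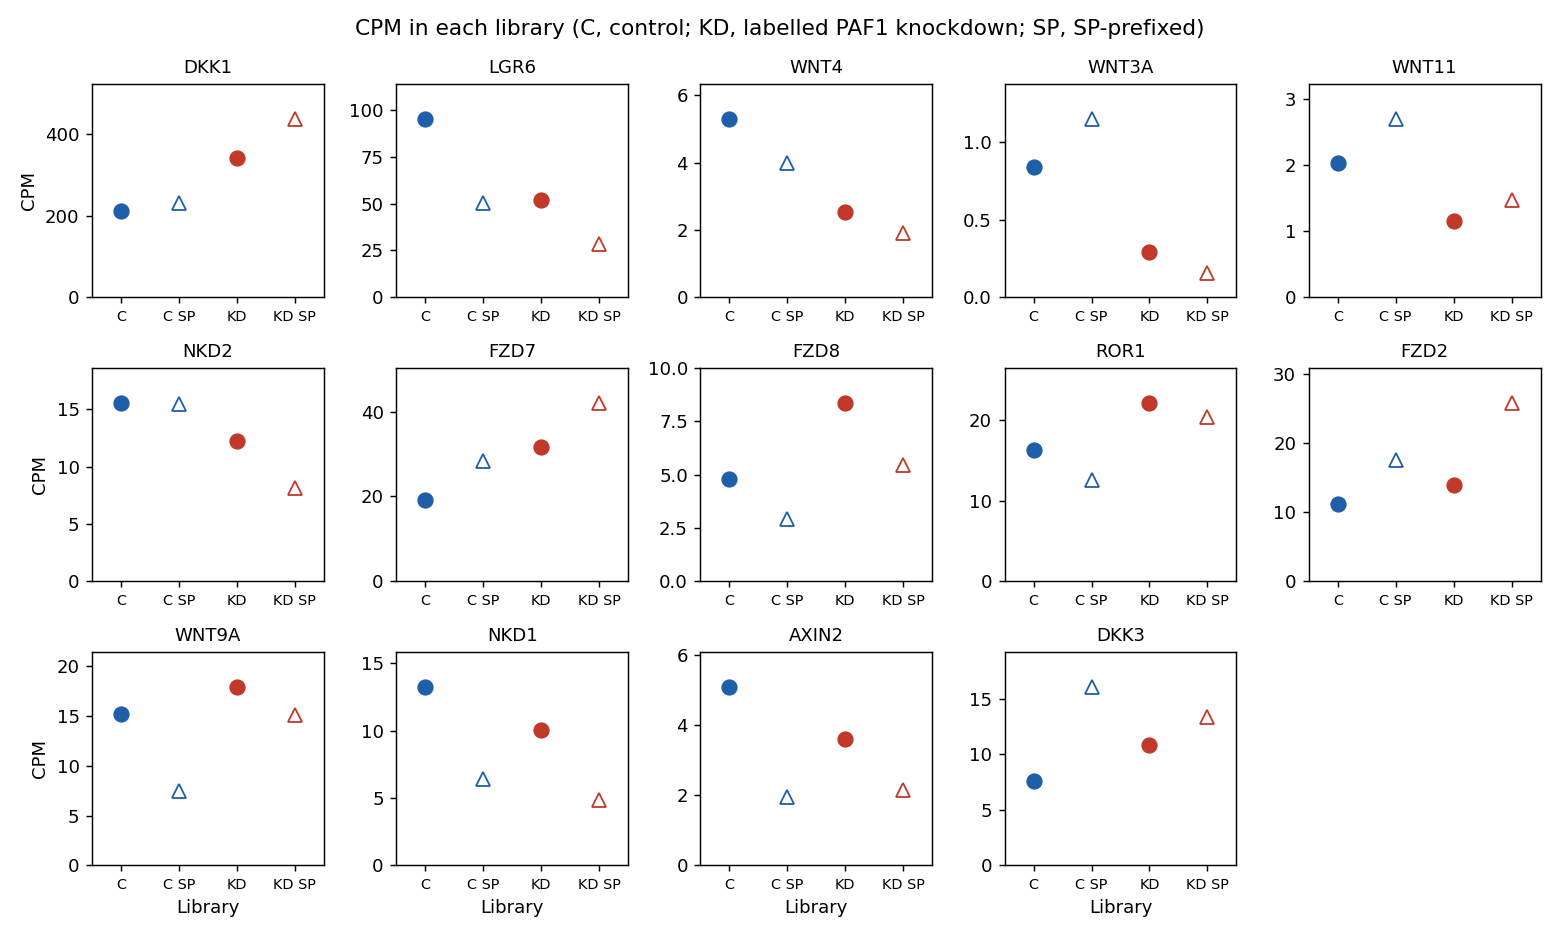
CPM of the 14 Wnt genes with an unadjusted p under 0.05 in the group or prefix comparison, in each library; every panel starts at 0. C is control, KD is labelled PAF1 knockdown and SP is SP-prefixed; DKK1 lies higher in both KD libraries, while LGR6, NKD1 and AXIN2 are lower in the SP-prefixed library of each group.

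Among the ligands, 10 of 19 were tested and 0 were called by edgeR or DESeq2 with the prefix term. DESeq2 gave no adjusted p for WNT3A, WNT6 and WNT7A in that fit, so it could not call them. The unadjusted p in edgeR with that term was under 0.05 for 1 higher and 3 lower, WNT3A among the latter (all genes 5.57% higher and 9.89% lower). WNT4, a ligand with roles in urogenital development, was at 5.29 and 3.99 CPM in the unprefixed and SP-prefixed controls and 2.55 and 1.90 in the other group. The groups did not overlap, and the log2 difference was -1.06 ± 0.25 with the prefix term (edgeR, adjusted p = 0.0672). WNT3A, a classical activator of beta-catenin signalling, had 19 and 23 counts in the controls and 5 and 3 in the other group. It passed the filter only through the controls, so its inclusion among the genes tested depended on its being higher there, and its test is not read as support. WNT11, mostly tied to beta-catenin-independent signalling, was at 2.03 and 2.69 against 1.16 and 1.48 CPM, a log2 difference of -0.84 ± 0.30 (adjusted p = 0.203). The abundant ligands lay closer together. WNT7B was at 83.3 and 60.9 CPM in the controls and 75.0 and 69.4 in the libraries labelled PAF1 knockdown, and WNT10A at 56.1 and 40.0 against 44.9 and 47.5, so that both overlapped. WNT9A was at 15.2 and 7.48 against 17.9 and 15.1 CPM, where the SP-prefixed control alone was low (log2 difference 0.60 ± 0.22 with the prefix term, adjusted p = 0.215). Without the unprefixed control the WNT9A difference was 1.15 (edgeR, no prefix term), where that low SP-prefixed control alone stands for its group. WNT3, WNT16, WNT6 and WNT7A stayed at 0.347 to 3.65 CPM in every library.

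Among the receptors, 11 of 14 were tested and 0 were called by either tool with the prefix term. In edgeR with that term, 4 were higher at an unadjusted p under 0.05 (FZD2, FZD7, FZD8 and ROR1) and 0 lower. Over all genes the shares were 5.57% higher and 9.89% lower. LRP5 was at 374.4 and 350.2 CPM in the controls and 337.3 and 282.9 in the other group, a log2 difference of -0.23 ± 0.13 with the prefix term (edgeR, adjusted p = 0.442). Its relative LRP6 was at 69.6 to 82.2 CPM, with the groups overlapping. FZD6 was at 101.5 and 123.7 against 98.9 and 95.9 CPM. The other frizzled receptors of note were lower in level. FZD7, which transduces beta-catenin signals in many stem cell settings, was at 19.1 and 28.4 CPM in the controls and 31.6 and 41.9 in the libraries labelled PAF1 knockdown, which did not overlap (log2 difference 0.64 ± 0.16, adjusted p = 0.0753). FZD8, also a Wnt receptor, was at 4.80 and 2.94 against 8.34 and 5.43 CPM (0.83 ± 0.22, adjusted p = 0.0944). ROR1, a receptor of beta-catenin-independent Wnt signals, was at 16.3 and 12.6 against 22.1 and 20.4 CPM (0.57 ± 0.17, adjusted p = 0.149). The groups of FZD8 and ROR1 did not overlap either. None of these 3 passed the test with all libraries. Without the unprefixed control the ROR1 difference was 0.77, beside 0.56 with all libraries (edgeR, no prefix term). There the SP-prefixed control, which stood apart from the other libraries, alone stands for its group. FZD1, FZD3, FZD4 and FZD5 lay at 5.38 to 37.2 CPM, with an unadjusted p above 0.05.

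Among the feedback regulators, 4 of 4 were tested and 0 were called by either tool in the group comparison. The unadjusted p in edgeR with the prefix term was under 0.05 for 1, NKD2, which was lower (all genes 5.57% higher and 9.89% lower). NKD2, which binds Dishevelled, was at 15.5 and 15.4 CPM in the controls and 12.2 and 8.17 in the other group, a log2 difference of -0.62 ± 0.20 with the prefix term (edgeR, adjusted p = 0.17). AXIN1, the scaffold of the destruction complex, was at 61.1 and 81.2 against 67.5 and 75.2 CPM, so that the groups overlapped. TCF7L2, the most abundant nuclear partner of beta-catenin here, was at 27.0 and 26.1 against 29.9 and 26.5 CPM. TCF7L1, which mostly represses, was at 15.7 and 17.9 against 17.7 and 19.1 CPM, and TCF7 was at 11.6 to 17.9 CPM. The groups overlapped in all 3 of these TCF factors.

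**Figure D3:**
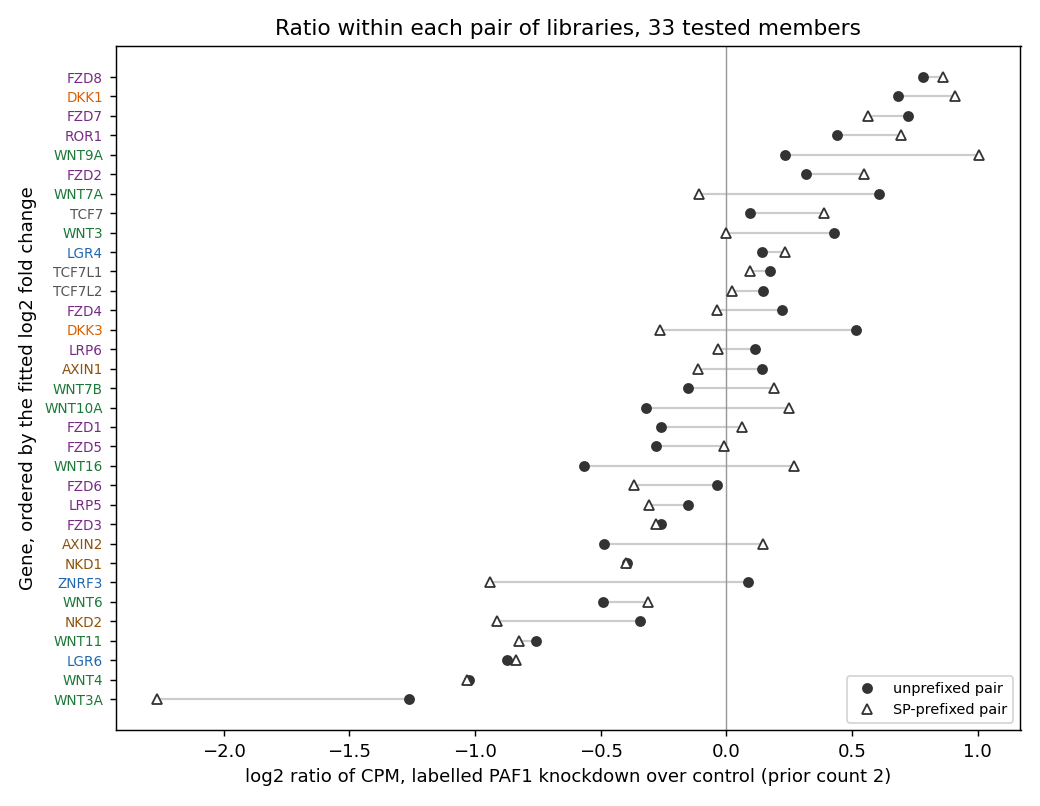
Log2 ratio of CPM, library labelled PAF1 knockdown over control, for each of the 33 tested Wnt genes; circles are the unprefixed pair, triangles the SP-prefixed pair, and name colours stand for roles. DKK1 lies above 0 and LGR6 below 0 in both pairs, at 0.68 and 0.91 and at -0.87 and -0.84.

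The ratio had the same sign in both pairs in 21 of the 33 genes (63.6%), against 62.3% of all genes tested. Along the name prefix, with group as a covariate, edgeR called 41 genes (0.25%, with 0.152% higher and 0.0975% lower) and 1 of the 33 Wnt genes. An unadjusted p under 0.05 was found for 8 Wnt genes (24.2%), 3 higher and 5 lower, against 10.7% of all genes, 5.63% higher and 5.1% lower. LGR6 was lower in the SP-prefixed libraries, by a log2 difference of -0.90 ± 0.14 (Benjamini-Hochberg adjusted p = 0.0468), close to the threshold. The call was lost with RLE scaling (adjusted p = 0.0584), with a minimum count of 30 (0.0572) and without the filter (0.374). The SP-prefixed and unprefixed libraries did not overlap in 14 of the 33 genes (42.4%), against 33.7% of all genes tested. NKD1, an inhibitor of Dishevelled and a common target of the pathway, was at 13.2 and 10.0 CPM in the unprefixed and 6.43 and 4.85 in the SP-prefixed libraries (control first), differing by -1.04 ± 0.20 on the log2 scale (adjusted p = 0.071). AXIN2, a feedback inhibitor and one of the most general targets of beta-catenin, was at 5.07 and 3.59 against 1.94 and 2.16 CPM (-1.08 ± 0.27, adjusted p = 0.166). Both were lower in the SP-prefixed library of each group, without passing the test. FZD2, a frizzled receptor, was at 11.2 and 14.0 CPM in the unprefixed and 17.6 and 25.8 in the SP-prefixed libraries (0.76 ± 0.18, adjusted p = 0.126). DKK3, a divergent member of the DKK family, was at 7.58 and 10.9 against 16.1 and 13.3 CPM (0.69 ± 0.22, adjusted p = 0.279). FZD7 was also higher along the prefix (0.49 ± 0.16, adjusted p = 0.279). FZD8 (-0.66 ± 0.22, adjusted p = 0.299) and WNT9A (-0.62 ± 0.22, adjusted p = 0.321) were lower. Of 15 other known targets tested, 9 were higher and 6 lower along the prefix. Their unadjusted p was under 0.05 for 1 higher and 3 lower (all genes 5.63% higher and 5.1% lower).

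**Figure D4:**
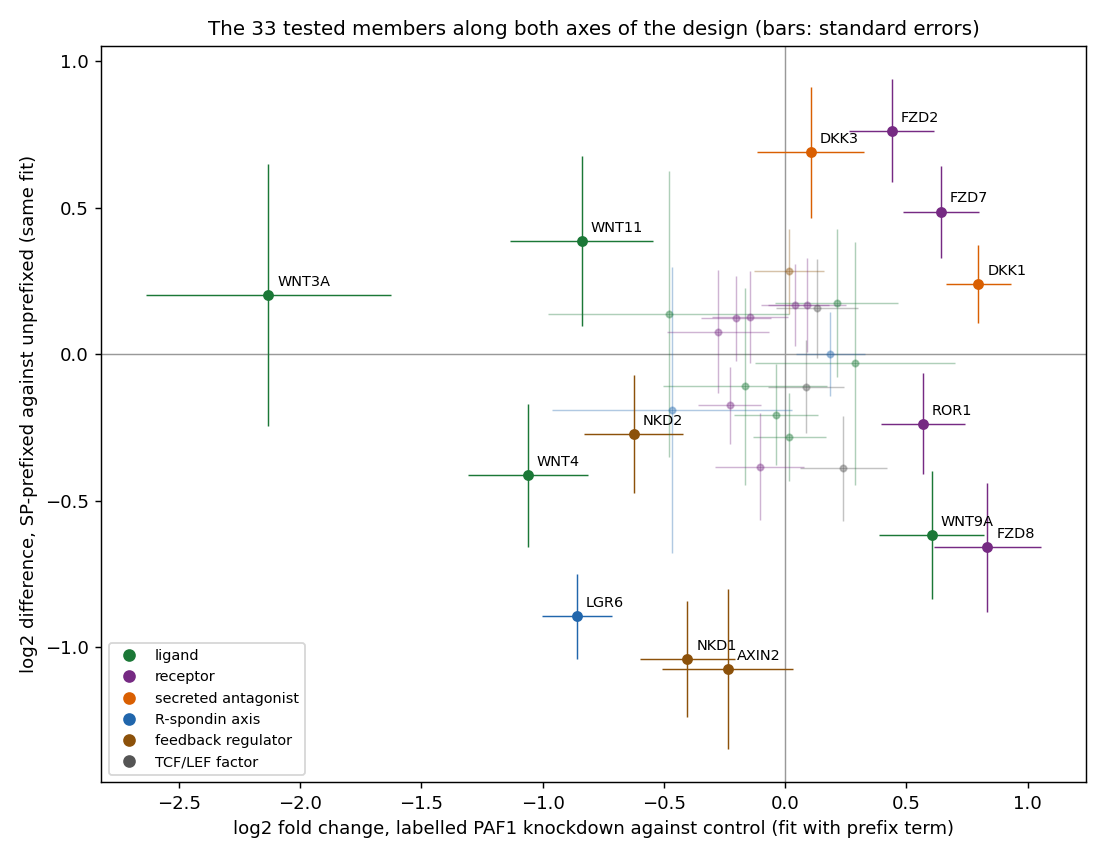
Log2 difference along the name prefix against log2 difference between groups for each tested Wnt gene, both from the fit with group and prefix terms; bars are standard errors. DKK1 is displaced along the group axis (0.80), NKD1 and AXIN2 along the prefix axis (-1.04 and -1.08), and LGR6 along both (-0.86 and -0.90).

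The rest of the pathway was read from 5 lists. All 16 core genes and all 16 nuclear cofactors were tested, as were 14 of 16 genes of planar polarity, 8 of 17 of Wnt secretion and the extracellular space and 15 of 19 known targets. None was called by edgeR without the prefix term, where 8 of 69 tested (11.6%, beside 11.2% of all genes) had an unadjusted p under 0.05, while DESeq2 called 2 (2.9%, beside 1.6%), TLE2 and CELSR2. With the term in edgeR, 1 nuclear cofactor and 1 planar polarity gene fell (2.9%, beside 1.41% of all genes) and 0 rose (beside 0.542%). DESeq2 with the term called CELSR2 (adjusted p = 0.0472) and not TLE2 (adjusted p = 0.0517). TLE2, a co-repressor that binds TCF factors, was at 27.2 and 21.9 CPM in the controls and 13.3 and 13.0 in the other group, a fall by 0.89 ± 0.18 on the log2 scale (edgeR, adjusted p = 0.0358). CELSR2, a cadherin of planar polarity, was at 33.7 and 35.9 against 19.1 and 20.8 CPM, a fall by 0.81 ± 0.16 (adjusted p = 0.036). Neither overlapped between groups.

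The median log2 fold change of the lists with the prefix term was -0.06 for core genes, -0.07 for nuclear cofactors, 0.05 for planar polarity, -0.13 for secretion and 0.14 for targets, beside -0.008 over all genes. CTNNB1, which encodes beta-catenin, was at 280.3 to 297.4 CPM in the 4 libraries, and PORCN, which attaches the lipid needed for Wnt secretion, at 145.7 to 177 CPM. Of the 15 targets tested, 10 were higher and 5 lower with the prefix term, and 4 higher (TNFRSF19, BMP4, CD44 and SOX9) and 2 lower (MMP7 and EPHB3) had an unadjusted p under 0.05 (all genes 5.57% higher and 9.89% lower). BMP4, a secreted signalling protein, was at 55.6 and 35.8 CPM in the controls and 67.0 and 59.0 in the other group (adjusted p = 0.173, edgeR with the prefix term). MMP7, a secreted protease, was at 5.38 and 2.39 CPM in the controls and 3.13 and 0.632 in the libraries labelled PAF1 knockdown, and did not pass the test (adjusted p = 0.109, edgeR with the prefix term).

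**Figure D5:**
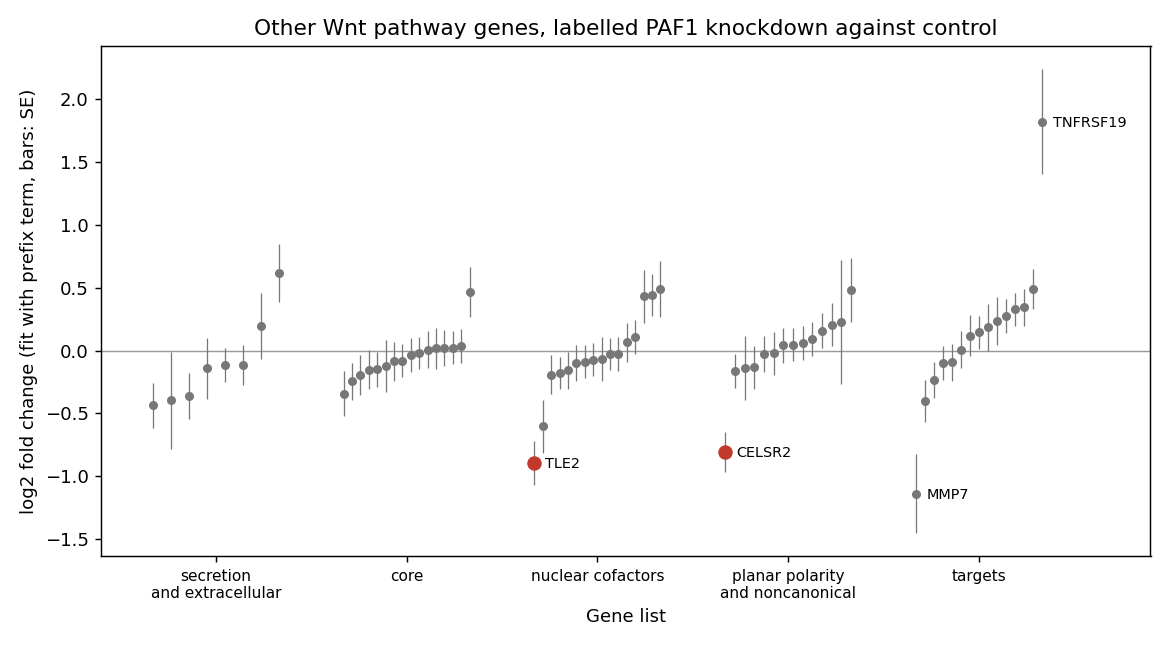
Log2 difference between groups with the prefix term for the tested genes of the 5 pathway lists; each point is 1 gene, bars are standard errors, and red marks genes past the threshold. TLE2 and CELSR2 lie at -0.89 and -0.81, while TNFRSF19 (1.82) and MMP7 (-1.14) lie farther from 0 and did not pass the test.

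How reads shared between overlapping genes were counted is not given in the sources used here, nor is the strand setting. Of the 58 Wnt genes, 44 shared no exon bases with another gene, and 5 shared more than 10% of theirs: AXIN2, FZD4, RNF43, WNT2B and ZNRF3. ZNRF3 shared 91.9% of its exon bases, so its low counts say little of its level.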

How the data were processed

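RNA was isolated with a mirVana kit and made into libraries with a TruSeq kit, per the labels' protocols, with an RNA integrity number of 10. The authors deposited unnormalized whole-number read counts for every gene in each lane, beside the exon length of each gene. FastQC, HISAT2 and featureCounts, and both hg19 and GRCh38, were named per the submitters' processing notes, without versions or roles. Gene positions followed GENCODE release 29 on GRCh38.

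Lanes were summed to 4 libraries of 17234973 to 22348416 counts. All 60483 genes entered edgeR 4.0.16 in R 4.3.3 (quasi-likelihood F test, TMM scaling, filterByExpr at its minimum count of 10), with Benjamini-Hochberg adjustment over the 16417 genes tested and a threshold of 0.05. The main fit had no covariate. A fit with the name prefix as a term, DESeq2 1.42.0, limma-voom (limma 3.58.1), other scalings and filters, single lanes and leaving out each library were alternatives. The older edgeR dispersion and DESeq2 with the prefix term were added after seeing the data. CPM used TMM-scaled library sizes, and RPKM divided CPM by kilobases of exon. Standard errors came from the F statistic. Poisson intervals (95%) and the floor of 3 counts cover counting error only, since reads carry no molecular identifiers. Both fits were tested on simulated data drawn from the real means and library sizes.

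The members, the pathway lists and the cell type markers were chosen with earlier results of these data known. Genes were named with all 4 values if they passed the test with or without the prefix term, had an unadjusted p under 0.05 in either fit or along the prefix, or were the highest 2 of their role per length. Pathway genes were named where called. MUC1, TNFRSF19, BMP4, CD44, SOX9, EPHB3, CTNNB1, PORCN and MMP7 were chosen after their values were seen.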

Additional observations from a re-analysis of the deposited data

How the results depend on the processing

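No paired analysis was possible because the columns carry no library number from the titles, so that numbering could not be used. Libraries alike in prefix were blocked instead, with the name prefix fitted as a term. With all libraries, edgeR called DKK1 and LGR6 between groups only with that term. DESeq2 called LGR6 only with the term (adjusted p = 0.00516, against 0.761 without). It called DKK1 both with the term (adjusted p = 0.00182) and without it (0.00294). For knockdown against control, where 0 Wnt genes were called higher and 0 lower, DESeq2 called 1 higher (DKK1), the prefix term 1 higher and 1 lower (DKK1 and LGR6), and DESeq2 with the prefix term 1 and 1. Leaving out 1 library gave 0 to 3 higher (3 without the unprefixed control: DKK1, ROR1 and WNT9A; 1 without the SP-prefixed control: DKK1) and 0 to 1 lower (WNT3A, without the unprefixed control; it passed the filter only through the controls, so this call is not read as support). With 1 library left in a group, it is assumed to vary like the other group. Over all genes, 1316 were called without the unprefixed control, 208 without the SP-prefixed control and 0 without either library labelled PAF1 knockdown. Leaving out a library in the fit with the prefix term leaves no residual degree of freedom, so DKK1 and LGR6 there have no such check. Along the prefix, where 1 Wnt gene (LGR6) was called lower and 0 higher, lane 2 alone called 1 higher (FZD2). The count of lower genes was 2 (LGR6 and NKD1) with upper-quartile scaling, library-size scaling, protein-coding genes alone and lane 2 alone. It was 0 with RLE scaling, no filter, a minimum count of 30, the older edgeR dispersion and no group term, so the LGR6 call along the prefix rests on these settings. The median log2 fold change of the Wnt genes stayed between -0.058 and 0.05.

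Of 632 values of single named genes under the alternatives, 588 kept their direction and side of the threshold, 24 turned direction, 15 passed the threshold where the main setting did not (DKK1, LGR6, ROR1, WNT3A, WNT9A, FZD2 and NKD1) and 5 lost it (LGR6 along the prefix). For knockdown against control, AXIN1 turned to -0.001 with library-size scaling, -0.002 with a minimum count of 30, and -0.008 with lane 1 alone. WNT7B turned to -0.007 with library-size scaling, -0.003 with a minimum count of 30, and -0.032 with lane 2 alone. With a library left out, AXIN1 ranged from -0.174 to 0.224, WNT7B from -0.205 to 0.26, AXIN2 from -0.827 to 0.565, DKK3 from -0.391 to 0.679, FZD2 from -0.037 to 0.846, NKD1 from -1.018 to 0.212 and WNT10A from -0.279 to 0.223. Without a change of sign, FZD7 ranged from 0.389 to 0.945, FZD8 from 0.486 to 1.232, NKD2 from -0.917 to -0.339 and WNT9A from 0.118 to 1.154. Along the prefix, LGR4 turned to -0.009 with upper-quartile scaling, -0.029 with library-size scaling, -0.002 with a minimum count of 30, -0.006 with protein-coding genes alone and -0.043 with lane 2 alone, and WNT3A to -0.102 with DESeq2. The cause of these changes was not tested. Depth limits the 15 low genes, which had at most 18 counts.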
